A study of Mus musculus with 7 samples.

Results

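Ribosome biogenesis and nucleolar genes were examined in mouse pancreatic β-cells after 2 days of high fat feeding. The 35 genes were taken by symbol from the count table of sorted β-cells, out of 24035 genes with a symbol, and all 35 were in the table and passed the filter on low counts, as did 12354 genes in all. The list covers the assembly of the large ribosomal subunit (11 genes), the small subunit processome with later steps of small subunit maturation (10 genes), the box C/D and H/ACA ribonucleoproteins (6 genes), nucleolar scaffold and rDNA chromatin proteins (6 genes) and RNA polymerase I (2 genes). Many of the 35 genes are known as targets of MYC.

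mRNA was sequenced from β-cells of C57BL/6NCrl mice (C57BL/6N in the labels) that were placed at 12 weeks of age on a high fat diet (HFD) or kept on a chow diet (CD) for 2 days. There were 3 HFD libraries (replicates 2 to 4) and 4 CD libraries (replicates 1 to 4), each from a separate mouse. All mice were of this strain, with no transgene and no treatment other than diet named in the labels. The methods give mice of both sexes and the account of the short feeding gives males, while the labels do not state the sex of the sequenced mice. β-cells were sorted by flow cytometry with ZIGIR, a dye for zinc, and Ex4-Cy5, a labelled ligand of the GLP-1 receptor.

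Ribosomes are made in the nucleolus, where RNA polymerase I transcribes the ribosomal DNA into a long precursor RNA. Small nucleolar RNAs (snoRNAs), held in box C/D or H/ACA particles, guide its methylation and pseudouridylation, and large assemblies of proteins cut and fold it into the small and the large subunit. Growing cells raise this output, and MYC is a known activator of the genes involved. In β-cells insulin is a major product of the ribosomes made.

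The libraries held 10559175 to 14391602 counts on HFD and 11145642 to 22557957 counts on CD. HFD replicate 3 stood apart: 9627 genes had a count in it, against 12484 to 14600 in the other libraries, and 807 of the 9443 genes with at least 50 counts in all other libraries (8.55%) were at 0 in it, against at most 0.0118% elsewhere. Its highest correlation with another library was 0.853, against 0.958 to 0.979 for the others. Results are therefore given with and without this library. β-cell markers, Ins1 and Ins2 the highest, summed to 319965 to 333435 CPM (counts scaled to the library size) on HFD and 303343 to 315527 CPM on CD. Acinar markers varied from 0.915 to 2186 CPM on HFD and from 62.7 to 2736 CPM on CD, whereas endothelial markers reached at most 1.33 CPM on HFD and 0.85 CPM on CD. Ductal markers, Krt7 the highest, summed to 166 to 254 CPM on HFD and 182 to 221 CPM on CD. Macrophage and leukocyte markers, C1qa the highest, summed to 29.3 to 48.2 CPM on HFD and 46.2 to 68.5 CPM on CD. α-cell markers summed to 73.9 to 154 CPM on HFD and 81.3 to 306 CPM on CD, and δ- and PP-cell markers to 479 to 657 CPM on HFD and 441 to 1292 CPM on CD. All tested genes of these lists (2 of 4 and 3 of 3) had log2 fold changes below 0 with 0 at an unadjusted p under 0.05, and for Gcg, Sst and Ppy CD replicates 2 and 3 were the highest libraries. The part of these other cells in the values of the nucleolar genes was not tested.

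None of the 35 genes passed an adjusted p of 0.05 between HFD and CD (edgeR quasi-likelihood test, Benjamini-Hochberg over all 12354 genes), nor did any gene of the table (0% called). By other tools the table gave 137 genes with DESeq2, 23 with the likelihood ratio test of edgeR and 0 with limma-voom, and no nucleolar gene was among them. At an unadjusted p under 0.05, 1 nucleolar gene, Utp20, was higher on HFD and 0 were lower, while over all genes 353 (2.86%) were higher and 360 (2.91%) were lower. Upper-quartile scaling changed this split over all genes to 420 higher and 283 lower. The 35 log2 fold changes ran from -0.92 to 1.23, with 19 above 0 and 16 below and a median of 0.05, beside a median of -0.08 over all genes tested, of which 42.1% were above 0. In bulk samples a difference in the number of expressing cells and in the RNA per cell cannot be told apart.

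Without HFD replicate 3 the fold changes narrowed to a range of -0.55 to 0.60. The median was -0.01, with 16 genes above 0 and 19 below, beside a median of -0.04 over all genes then tested, of which 45.2% were above 0. Of the 35 genes 13 changed sign. In that fit 1 gene, Bop1, was higher at an unadjusted p under 0.05 and 0 were lower, against 2.99% higher and 3.82% lower over all 12784 genes then tested. The 95% interval lay within a 2-fold difference for 18 of the 35 genes with all libraries and for 25 without HFD replicate 3, and within 1.5-fold for 5 and 11 genes. For the remaining genes a change of 2-fold or more in at least 1 direction was inside the interval, so that the data set no closer bound.

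**Figure D1:**
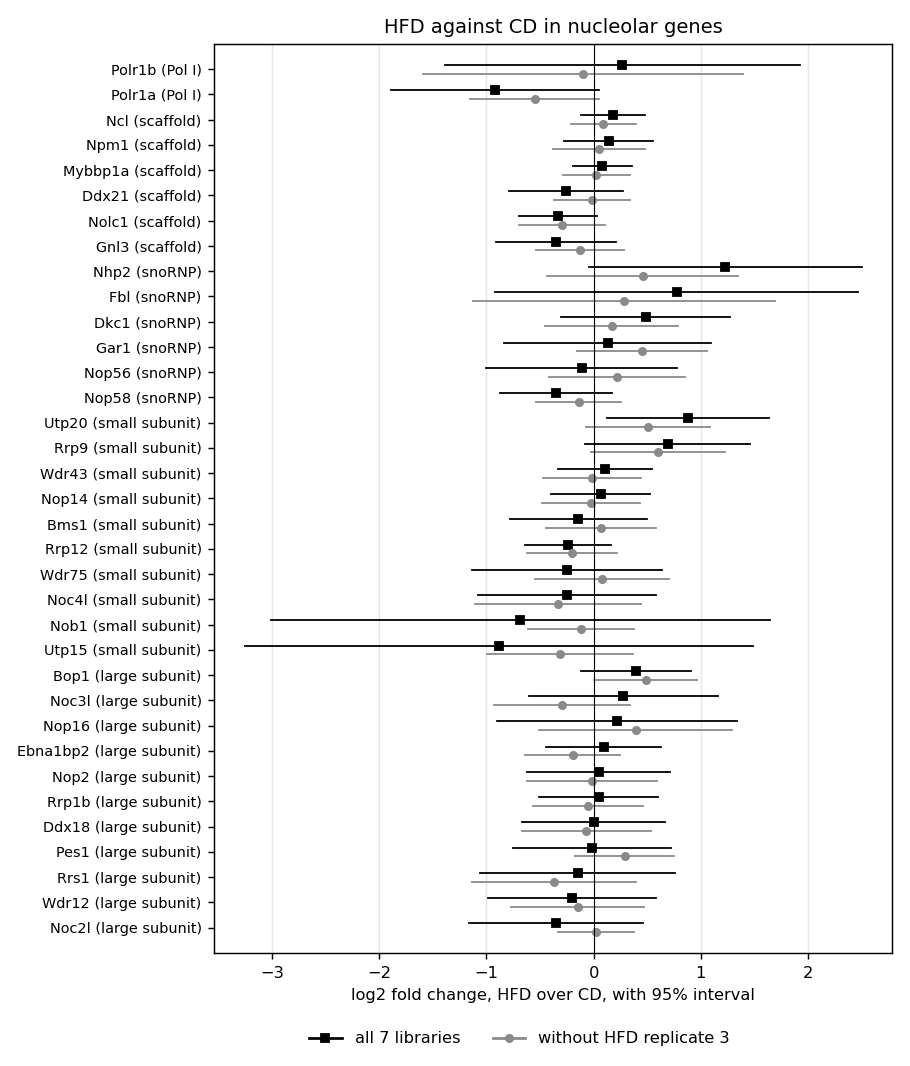
Log2 fold change of each of the 35 nucleolar genes (HFD over CD) with its 95% interval, by role, from all 7 libraries (black squares) and without HFD replicate 3 (grey circles). The estimates run from -0.92 to 1.23 with all libraries and from -0.55 to 0.60 without HFD replicate 3, and the interval of Utp20 lies above 0 with all libraries only.

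All HFD libraries lay above every CD library for 2 genes, Utp20 and Rrp9, and below every CD library for 1 gene, Nolc1. Over all genes tested these shares were 4.03% and 5.37%. Without HFD replicate 3, and with scaling recomputed for the other 6 libraries, the counts were 3 above, with Bop1 added, and 1 below, against 9.25% and 8.79% of all genes. On the scaling of all 7 libraries Gar1 would be added too, with its lowest HFD value at 16.97 CPM and its highest CD value at 16.93 CPM.

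**Figure D2:**
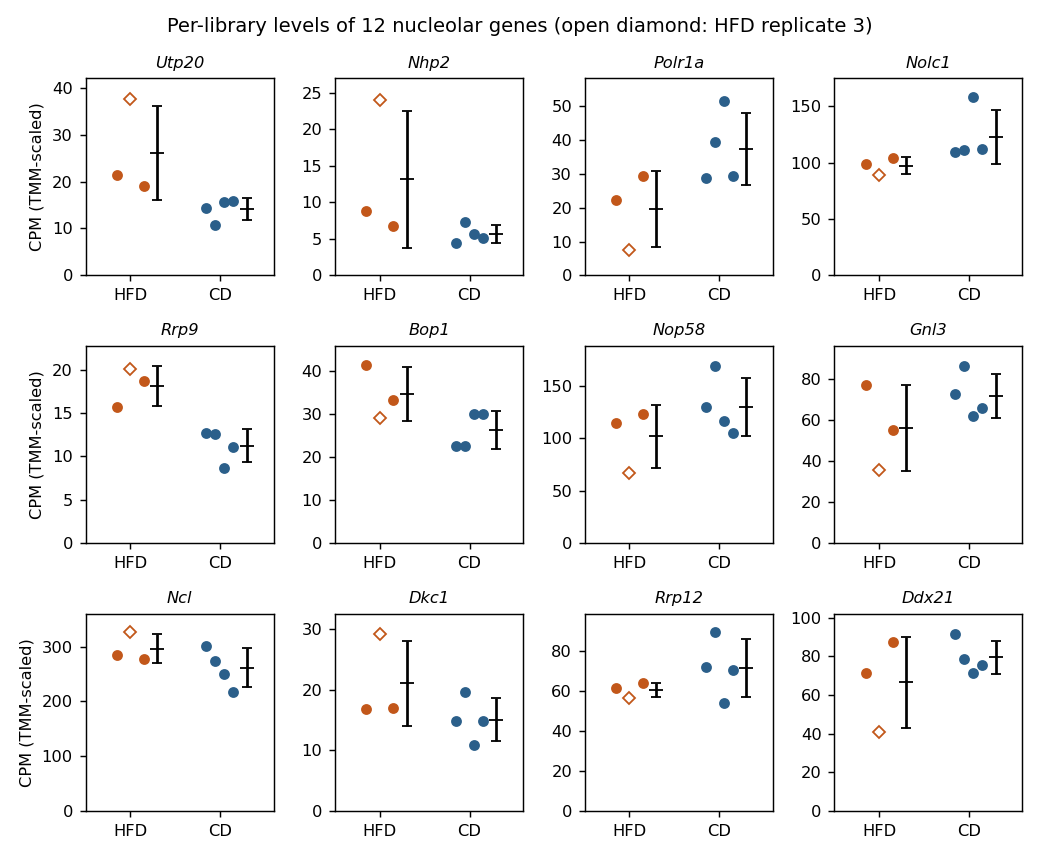
TMM-scaled CPM in each library for the 12 nucleolar genes of lowest p, HFD left and CD right; the cross with bars is the mean ± SD (n = 3 HFD and n = 4 CD) and the open diamond is HFD replicate 3. The groups overlap in all but Utp20, Rrp9 and Nolc1, and HFD replicate 3 is the library farthest from CD for Utp20 (37.6 CPM), Nhp2 (24.0 CPM) and Polr1a (7.41 CPM).

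Among the small subunit genes, Utp20, a large scaffold protein of the processome, had 21.5, 37.6 and 19.1 CPM in HFD replicates 2, 3 and 4, against 14.4, 10.7, 15.6 and 15.8 CPM in CD replicates 1 to 4. All 3 HFD libraries were above the highest CD library, and HFD replicate 3 was the highest of them. The log2 fold change was 0.88 ± 0.34 (SE; adjusted p = 0.817), with an unadjusted p under 0.05. Without HFD replicate 3 it was 0.50 (adjusted p = 0.767), and the unadjusted p was then above 0.05. The unadjusted p was also above 0.05 without CD replicate 1 (log2 fold change 0.89) or CD replicate 2 (log2 fold change 0.76). Rrp9, which binds the U3 snoRNA, had 15.6, 20.1 and 18.7 CPM on HFD and 12.7, 12.6, 8.60 and 11.1 CPM on CD. These groups did not overlap either, with a log2 fold change of 0.69 ± 0.34 (SE; adjusted p = 0.861) that was 0.60 without HFD replicate 3. Rrp12, a HEAT-repeat protein of preribosome maturation and export, had 61.2, 56.3 and 63.6 CPM on HFD and 71.9, 89.2, 53.9 and 70.1 CPM on CD. Its lowest library was a CD library, and its log2 fold change was -0.24 ± 0.18 (SE).

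Utp15, a member of the subcomplex that links the processome to transcription of the precursor, and Nob1, the endonuclease that makes the end of the mature small subunit RNA, were at 0 counts in HFD replicate 3. By counting error alone a count of 0 there allows up to 3 counts, or 0.274 CPM. Because many well-counted genes were at 0 in that library, this does not bound the level in the mouse. In the other 6 libraries Utp15 lay between 11.5 and 26.0 CPM and Nob1 between 18.5 and 24.3 CPM. Without HFD replicate 3 the log2 fold change of Utp15 was -0.31 and that of Nob1 -0.11, against -0.88 and -0.68 with it. Of 33 nucleolar genes with at least 50 counts in every other library, these 2 (6.06%) were at 0 in HFD replicate 3, beside 8.55% of all such genes.

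The other small subunit genes had log2 fold changes between -0.25 and 0.10. Wdr43, a partner of Utp15 in the same subcomplex, averaged 63.4 ± 7.98 CPM on HFD and 58.9 ± 13.1 CPM on CD (SD, n = 3 and n = 4). Wdr75, of that subcomplex too, had 13.9 CPM in HFD replicate 3, the lowest of its 7 values, and the GTPase Bms1 had 18.7 CPM there, again its lowest. Without that library their log2 fold changes were 0.08 for Wdr75 and 0.07 for Bms1, against -0.25 and -0.14 with it. Nop14 and Noc4l, which in yeast form a pair in the processome, had fold changes of 0.07 and -0.25. The median of the 10 small subunit genes was -0.19, with 4 above 0 and 6 below, or -0.02 without HFD replicate 3.

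Of the large subunit genes, Bop1 had 41.4, 29.2 and 33.3 CPM on HFD, against 22.6, 22.6, 30.1 and 30.1 CPM on CD. HFD replicate 3 lay within the CD range and the other HFD libraries lay above it. The log2 fold change was 0.39 ± 0.23 (SE; adjusted p = 0.887) and 0.49 without HFD replicate 3 (adjusted p = 0.734, unadjusted p under 0.05). Bop1 forms the PeBoW complex with Pes1 and Wdr12, which is needed for maturation of the large subunit RNAs. Pes1 had 36.1, 14.8 and 36.1 CPM on HFD and 24.0, 36.7, 27.9 and 28.5 CPM on CD. Wdr12 had 14.2, 11.4 and 12.6 CPM on HFD and 12.2, 14.1, 18.1 and 14.0 CPM on CD. Both overlapped between the diets, with log2 fold changes of -0.01 and -0.20, and only for Pes1 did leaving out HFD replicate 3 turn the sign, to 0.29.

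Noc2l and Noc3l, whose yeast counterparts act in export of the large subunit precursor, lay on opposite sides of the other libraries in HFD replicate 3. Noc2l had 18.7 CPM there and 54.9 to 69.8 CPM in the 6 other libraries, while Noc3l had 39.1 CPM there and 13.3 to 24.4 CPM in the others. Without it their log2 fold changes were 0.02 for Noc2l and -0.30 for Noc3l, against -0.35 and 0.28 with it. Nop2, an rRNA cytosine methyltransferase, the helicase Ddx18 and Rrp1b had log2 fold changes of 0.05, 0.00 and 0.05. Ebna1bp2, Nop16 and Rrs1, assembly factors known best from their yeast counterparts, had values of 0.09, 0.22 and -0.15. Across the 11 genes 7 were above 0 and 4 below with all libraries, and 4 above and 7 below without HFD replicate 3.

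The box C/D and H/ACA genes had the highest median of the groups, 0.31, and 0.25 without HFD replicate 3, with 4 of 6 genes above 0 and then 5 of 6. Nhp2, a core protein of the H/ACA particle, had 8.78, 24.0 and 6.80 CPM on HFD, against 4.36, 7.31, 5.69 and 5.10 CPM on CD. HFD replicate 3 lay far above all others, and HFD replicate 4 lay within the CD range. The log2 fold change was 1.23 ± 0.57 (SE; adjusted p = 0.857) and 0.46 without HFD replicate 3. Dkc1, the pseudouridine synthase of the same particle, had 16.9, 29.2 and 17.1 CPM on HFD and 14.8, 19.6, 10.9 and 14.8 CPM on CD. It overlapped between the diets, with a log2 fold change of 0.49 ± 0.35 (SE) that was 0.17 without HFD replicate 3. Gar1, another core H/ACA protein, had 16.97, 7.41 and 21.9 CPM on HFD and 16.9, 11.8, 11.7 and 16.0 CPM on CD. Its HFD replicate 3 was the lowest library, unlike for Nhp2 and Dkc1, and HFD replicate 2 and CD replicate 1 were almost level.

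In the box C/D particle, Nop58 had 114, 67.1 and 123 CPM on HFD, against 130, 169, 116 and 104 CPM on CD. The ranges overlapped and HFD replicate 3 was the lowest, with a log2 fold change of -0.35 ± 0.23 (SE; adjusted p = 0.896) that was -0.14 without that library. Its partner Nop56 averaged 40.0 ± 19.5 CPM on HFD and 43.2 ± 16.95 CPM on CD (SD, n = 3 and n = 4), with a log2 fold change of -0.11, or 0.22 without HFD replicate 3. Fbl, fibrillarin, the ribose methyltransferase of the particle, was measured at only 4.13, 10.5 and 5.62 CPM on HFD and 1.43, 2.41, 5.24 and 6.66 CPM on CD. The 95% interval of the log2 fold change of Fbl was wide, from -0.92 to 2.47, and its coefficient of variation was 49.5% on HFD and 61.9% on CD.

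RNA polymerase I was represented by its catalytic subunits. Polr1a, the largest, had 22.3, 7.41 and 29.4 CPM on HFD, against 28.8, 39.3, 51.8 and 29.5 CPM on CD. HFD replicate 4 lay within the CD range and the other HFD libraries lay below it. The log2 fold change was -0.92 ± 0.43 (SE; adjusted p = 0.857) and -0.55 without HFD replicate 3 (adjusted p = 0.758). Polr1b had 7.97, 17.01 and 10.9 CPM on HFD and 12.4, 1.16, 16.8 and 9.28 CPM on CD. CD replicate 2, with 13 counts, stood below all others, and the log2 fold change was 0.27 ± 0.74 (SE) with all libraries and -0.12 without CD replicate 2.

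Among the scaffold and rDNA chromatin proteins, Nolc1, which carries snoRNPs and binds RNA polymerase I, had 98.9, 89.4 and 104.2 CPM on HFD, against 109.7, 111.3, 158.5 and 112.1 CPM on CD. All HFD libraries were below every CD library, with a gap of a few CPM, and CD replicate 3 was the highest. The log2 fold change was -0.34 ± 0.16 (SE; adjusted p = 0.858) and -0.29 without HFD replicate 3. Gnl3, nucleostemin, a GTPase of nucleolar growth control, had 77.2, 35.8 and 55.3 CPM on HFD and 72.9, 86.3, 61.9 and 65.7 CPM on CD. Ddx21, a helicase that joins transcription of rRNA to its processing, had 71.3, 40.8 and 87.4 CPM on HFD and 91.8, 78.9, 71.5 and 75.5 CPM on CD. For both, HFD replicate 3 was the lowest of the 7 libraries, and the log2 fold changes of -0.35 for Gnl3 and -0.25 for Ddx21 were -0.13 and -0.01 without it.

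Ncl, nucleolin, an abundant RNA-binding protein of the nucleolus, had 284, 327 and 277 CPM on HFD and 302, 274, 251 and 218 CPM on CD. The groups overlapped, with a log2 fold change of 0.18 ± 0.13 (SE; adjusted p = 0.904). Npm1, nucleophosmin, which forms the outer layer of the nucleolus, had a log2 fold change of 0.14, and Mybbp1a, a Myb-binding nucleolar protein, had 0.08 ± 0.12 (SE). The interval of Mybbp1a, from -0.19 to 0.36, was the narrowest of the 35.

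Summed over the 35 genes, the level was 1527, 1402 and 1586 CPM in HFD replicates 2, 3 and 4 and 1570, 1604, 1603 and 1451 CPM in CD replicates 1 to 4. HFD replicate 3 had the lowest sum. That library was also the lowest of the 7 for 14 genes and the highest for 11, counts for which no share over all genes is given here. Against the CD median the nucleolar genes of HFD replicate 3 had a median deviation of 0.12 on the log2 scale, beside -0.27 for all genes tested. Of the 35 genes 6 were more than 2-fold down and 3 more than 2-fold up, and of all genes tested 31.7% were down and 9.04% up by that much. The 2 sets were not matched for level: 33 of the 35 genes had at least 50 counts in every other library, whereas all genes tested include lower ones. In HFD replicate 3, 2808 of the 12354 genes tested were at 0. In HFD replicates 2 and 4 the median deviations were 0.03 and 0.15, with 0 of the 35 genes beyond 2-fold in either direction. Over all genes tested, 4.14% were up and 5.44% down by that much in HFD replicate 2, and 2.60% and 2.44% in HFD replicate 4.

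**Figure D3:**
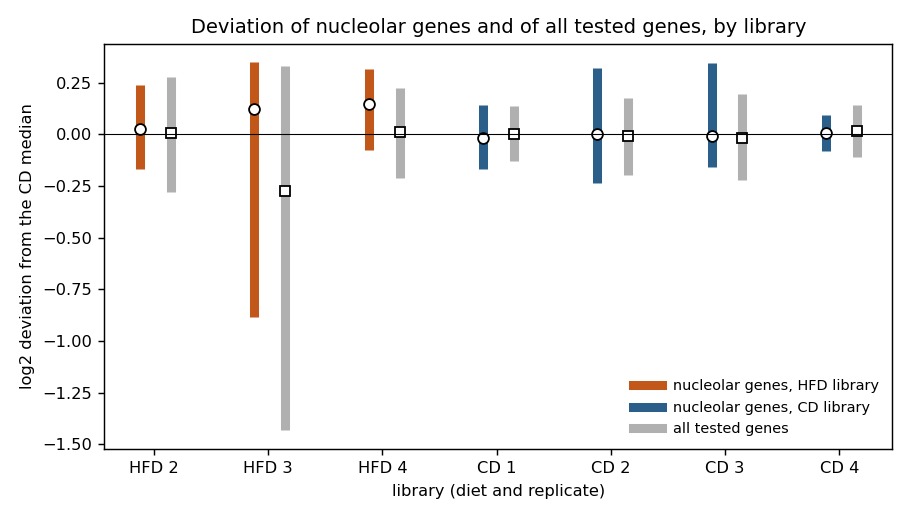
Median (open symbol) and middle 50% (bar) of the log2 deviation from the CD median in each library, for the 35 nucleolar genes (colour) and all genes tested (grey). HFD replicate 3 has the widest bars, with medians of 0.12 for the nucleolar genes and -0.27 for all genes, while the medians of the other libraries lie between -0.02 and 0.15.

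Levels between genes were compared per kilobase of coding sequence, with reads from untranslated ends included. The longest coding transcripts have 8202 bases for Ncl and 9507 for Nop58, but 1633 for Npm1 and 3634 for Nolc1. The order per kilobase of transcript could thus differ and was not computed. By coding sequence Ncl stood highest with 140 CPM per kb on HFD and 123 ± 16.8 CPM per kb on CD (SD, n = 4). Nop58 followed with 63.2 on HFD and 80.7 ± 17.3 on CD, Npm1 with 78.5 and 71.2 ± 14.8, and Nolc1 with 46.3 and 58.4 ± 11.3 CPM per kb. Nop58 and Npm1 differed on CD by less than the SD of either, and Npm1 and Nolc1 by less than the SD of Npm1 but more than that of Nolc1. The lowest genes were Polr1a with 3.82 on HFD and 7.25 on CD, Fbl with 6.89 and 4.01, Polr1b with 3.51 and 2.91, and Utp20 with 3.12 and 1.69 CPM per kb.

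**Figure D4:**
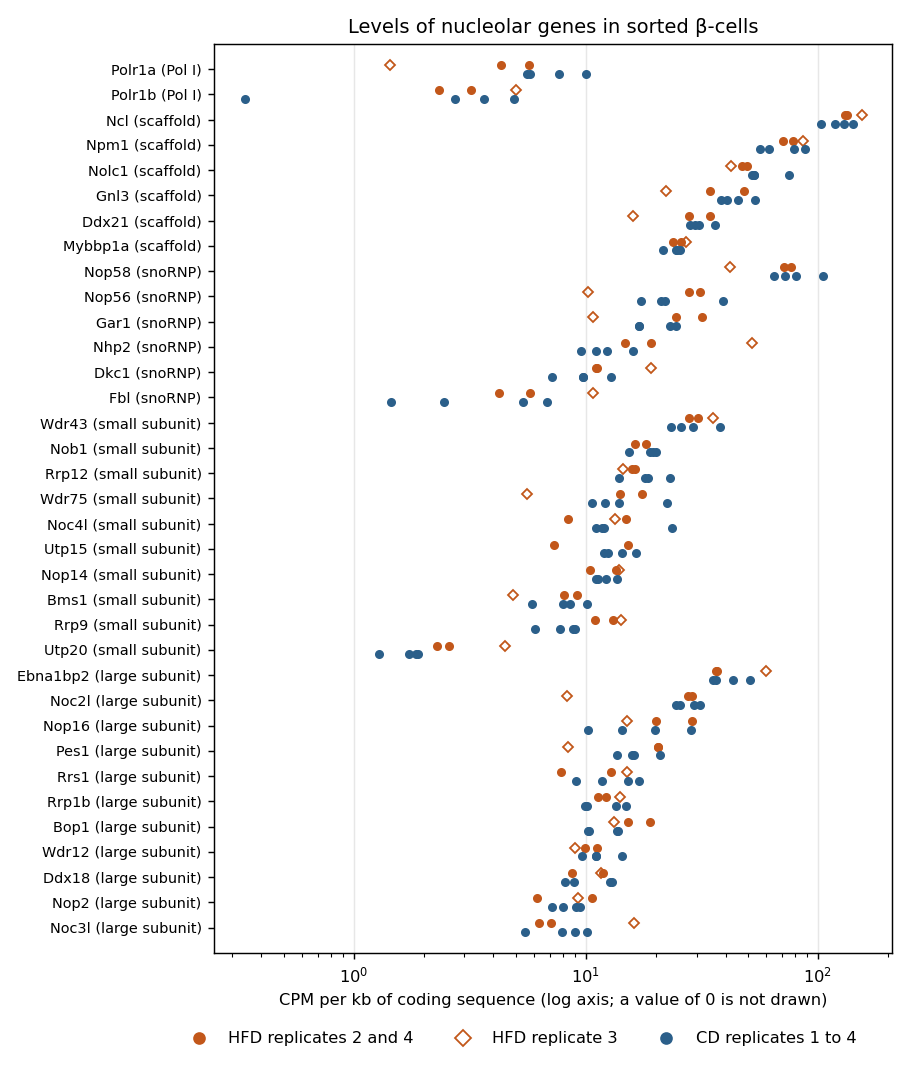
CPM per kb of coding sequence (log axis) of the 35 nucleolar genes in every library, by role; HFD above CD within each gene, open diamond for HFD replicate 3. On CD the genes span 123 CPM per kb for Ncl to 1.69 CPM per kb for Utp20, and values of 0 (Utp15 and Nob1 in HFD replicate 3) are not drawn.

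Some of these counts are less certain than others. In the GENCODE M21 annotation of GRCm38, processed pseudogenes and other loci share 73.0% of the 50-base stretches of the Fbl transcript, 62.7% of Ddx18, 40.9% of Npm1, 37.6% of Nop56 and 19.7% of Pes1, so that reads of these genes could have been split or dropped. Fbl (chr7:28169710-28179269, + strand), the most affected, was also among the lowest in level. Several genes overlap another gene on the opposite strand, such as Nop56 with Idh3b, Nhp2 with Rmnd5b, Rrp9 with Parp3 and Bop1 with Mroh1 and Scx. If the counting did not use strand, reads of the partner gene would be included.

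The gene bodies also differ in what the annotation places inside them. On the same strand, 6 of the 35 genes (17.1%) contain a snoRNA gene, against 234 of the 19643 protein-coding genes of the table (1.19%). They are Nop56 with 5 (among them Snord57 and Snord110), Nop58 with 4, Ncl, Wdr43 and Gnl3 with 3 each and Dkc1 with 1. snoRNAs of this kind are cut from the introns of their host gene, and their own levels were not analysed here.

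MYC and related factors bind the E-box, and the letters CACGTG (the same on both strands) were searched from 250 bases before to 50 bases after the RefSeq start of each gene (build GRCm38.p6). Of 30 genes with such a promoter entry, 5 (16.7%) held it, against 12% of 9318 tested genes and 8.09% of 27025 genes in all. CCGGAA, an ETS-type motif, on either strand was in 11 (36.7%), against 31.9% and 16.7%. A match is a description and no evidence of binding. The 5 windows are shown for the E-box, in capitals, because Utp20 and genes of the small and large subunit groups are among them. They are written 5′ to 3′ along the gene. Their positions are chr6:125131811-125131840 (+) for Nop2, chr11:3963965-3963994 (+) for Pes1, chr17:71616220-71616249 (+) for Wdr43, chr10:88826765-88826789 (-) for Utp20 and chr11:72441355-72441376 (+) for Mybbp1a.
Nop2: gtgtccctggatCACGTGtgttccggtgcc
Pes1: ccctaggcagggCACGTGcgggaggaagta
Wdr43: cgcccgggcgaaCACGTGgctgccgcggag
Utp20: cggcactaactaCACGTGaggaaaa
Mybbp1a: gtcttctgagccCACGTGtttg
The log2 fold changes of these genes were 0.05 for Nop2, -0.01 for Pes1, 0.10 for Wdr43, 0.88 for Utp20 and 0.08 for Mybbp1a, of which only Utp20 had an unadjusted p under 0.05, and Nop2, Pes1 and Wdr43 changed sign without HFD replicate 3.

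Other genes of the same process were counted in the same way, beside 2.86% of all genes higher and 2.91% lower at an unadjusted p under 0.05. Of 46 further small subunit genes 22 were above 0 and 24 below, with 1 higher at an unadjusted p under 0.05, Pno1 (0.57 ± 0.23, SE), a partner of Nob1. Of 47 further large subunit genes 23 were above 0 and 24 below, with 1 higher, Las1l (0.50 ± 0.16, SE). Of 13 other RNA polymerase I genes 8 were above 0 and 5 below, and of 10 other snoRNP genes 4 and 6, with 0 past that p in either list. The median of the 14 RNA exosome genes was -0.13, with 4 above 0 and 10 below, but without HFD replicate 3 it was 0.20, with 11 above and 3 below. With all libraries 1 of the 14, Exosc4 (0.85 ± 0.34, SE), was higher at an unadjusted p under 0.05 and 0 were lower. None of these genes passed the adjusted p of 0.05.

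Myc itself was low, at 3.39, 0 and 7.42 CPM on HFD and 5.03, 4.37, 4.03 and 3.97 CPM on CD, and its count of 0 was in HFD replicate 3. Mycn and Mycl were too low to be tested. Max, the partner of MYC, had a log2 fold change of 0.41 ± 0.24 (SE), which was 0.09 without HFD replicate 3. Mga, a MAX-binding protein that represses transcription, had 76.4, 79.2 and 81.6 CPM on HFD, against 118, 112, 117 and 89.1 CPM on CD. All HFD libraries were below every CD library, as for 5.37% of all genes. The log2 fold change was -0.46 ± 0.14 (SE; adjusted p = 0.772) with all libraries and -0.48 without HFD replicate 3. Mxd3, another MAX-binding repressor, had 4.94, 8.23 and 5.34 CPM on HFD, against 2.26, 0, 0.986 and 1.77 CPM on CD. All its HFD libraries were above every CD library, as for 4.03% of all genes. The log2 fold change was 2.29 ± 1.17 (SE; adjusted p = 0.861) at this low level. Of the 9 MYC network genes tested 5 were above 0 and 4 below. At an unadjusted p under 0.05, 1 of them, Mga, was lower and 0 were higher, beside 2.91% and 2.86% of all genes.

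Among 10 snoRNA host genes with long noncoding transcripts, 5 were above 0 and 5 below. At an unadjusted p under 0.05, 1 of them, Gas5, was lower and 0 were higher, beside 2.91% and 2.86% of all genes. Gas5, a host whose RNA is stabilised when translation is slowed, had 61.2, 62.8 and 69.9 CPM on HFD, against 92.9, 90.4, 85.6 and 73.1 CPM on CD. Its HFD libraries were all below every CD library, as for 5.37% of all genes, with a log2 fold change of -0.40 ± 0.14 (SE; adjusted p = 0.817). Of the 10 host genes 1 lay wholly above CD in this way and 1, Gas5, wholly below. The 8 cell cycle genes, a list chosen with earlier results of these data known, had log2 fold changes above 0 in 8 of 8, with 7 at an unadjusted p under 0.05 (2.86% of all genes were higher by this measure) and a median of 2.64. For each of the 8 the HFD libraries lay above the whole CD range, as for 4.03% of all genes, with a sum of 157 to 194 CPM on HFD and 38.2 to 50.1 CPM on CD. Without HFD replicate 3 their median was 2.33.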

How the data were processed

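β-cell RNA was extracted with TRIzol and libraries were made with a stranded kit for polyadenylated RNA and sequenced on an Illumina NextSeq. The authors deposited raw read counts per gene symbol for the 7 libraries, without normalization. The submitters' processing notes name mm10 and edgeR. Which aligner and counting tool were used, and whether strand was, is not given in the sources used here. Of 24062 rows, 27 hold a date in place of a symbol and were left out (up to 0.155% of a library's counts).

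Counts were scaled by TMM, filtered by filterByExpr and fitted over the whole table with glmQLFit and glmQLFTest of edgeR 4.0.16 in R 4.3.3 (HFD over CD, no covariate, two-sided, Benjamini-Hochberg adjustment). CPM values are TMM-scaled. P-values measure the spread between mice. The fit was tested on simulated data. The genes and lists were chosen with earlier results of these data known, and all 35 genes could be named, with per-library values for the 12 of lowest p and those whose groups do not overlap; values per library of other genes, such as Pes1, Wdr12, Gar1, Fbl, Polr1b, Mga and Gas5, were chosen for print after they were seen. Related lists followed a rule of lowest p and highest level. Alternatives were other size factors, filters on low counts, DESeq2 1.42.0, limma-voom (limma 3.58.1), the likelihood ratio test, the study's threshold of p under 0.1, each library left out, and the replicate number as a block. Sequences are from RefSeq. Counting error and depth limit low genes most, and the column totals are the depth of each library.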

Additional observations from a re-analysis of the deposited data

Results flagged for a closer look

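Among the 35 nucleolar genes in the 4 CD libraries, 2 had a library far from the other CD values. Chance flags about 1 in 20 such groups. Nolc1 was highest in CD replicate 3 at 158.5 CPM, with the nearest other CD library at 112.1 CPM, a gap of 0.949 of the CD range, above the Dixon critical value for 4 samples. Noc4l was highest in CD replicate 2 at 36.3 CPM, with the nearest at 18.5 CPM, a gap of 0.933 of the range. The cause was not tested for either gene.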

How the results depend on the processing

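No nucleolar gene passed an adjusted p of 0.05 under any alternative. The median log2 fold change of these genes, 0.05 with all libraries, turned negative without HFD replicate 3 (-0.0143), without HFD replicate 4 (-0.0871) and with the replicate number as a block (-0.00206). It was at most 0.0617 with 1 library left out (without HFD replicate 2) and 0.0772 with upper-quartile scaling. Genes of the whole table that passed numbered 137 with DESeq2, 23 with the likelihood ratio test and 0 to 2 when 1 library was left out. Nucleolar genes higher at an unadjusted p under 0.05 numbered 3 with DESeq2 (5.27% of all genes), 2 with limma-voom (2.66%), 2 with the likelihood ratio test (2.83%), 3 at the study's p under 0.1 (5.45%) and 0 to 2 with 1 library left out (1.81% to 3.21%), against 1 (2.86%). Lower genes numbered 1 with no filter (3.01%), 2 with DESeq2 (5.42%), 1 with limma-voom (3.82%), 1 with the likelihood ratio test (2.96%), 2 at p under 0.1 (5.93%) and 0 to 1 with 1 library left out (2.08% to 5.70%), against 0 (2.91%). Genes with HFD above CD numbered 2 to 4 (5.38% to 9.25% of all genes) and below 1 to 4 (6.93% to 14.1%) with 1 library left out. Utp20 had an unadjusted p above 0.05 without CD replicate 1, CD replicate 2 or HFD replicate 3, while Nhp2 and Polr1a (without HFD replicate 4), Gnl3 (without HFD replicate 2), Rrp12 (without CD replicate 3) and Bop1 (without HFD replicate 3) came under it. The cause was not tested. Same-numbered HFD and CD libraries deviated together with correlations of 0.072, 0.017 and 0.056 for replicates 2, 3 and 4. Between different numbers the correlations ran from -0.044 (HFD replicate 2 with CD replicate 1) to 0.042 (HFD replicate 3 with CD replicate 1). The same-numbered CD library had the highest correlation for HFD replicates 2 and 4, but not for HFD replicate 3. The main fit did not pair mice by number, and whether the numbers mark pairs was not tested. With the replicate number as a block, CD replicate 1 had no HFD library of its number and so added nothing to the diet contrast. At an unadjusted p under 0.05, 0 nucleolar genes were then higher and 0 lower, and the median was -0.00206. Over all 12354 genes 134 were higher and 241 lower in that fit, against 353 and 360 in the main fit. Utp20 was above an unadjusted p of 0.05 with the block. Fbl and Polr1b had under 20 counts in a CD library, which limits their precision, and Utp15 and Nob1 had 0 counts in HFD replicate 3 only.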
